A study of Caenorhabditis elegans with 2 samples.

Results

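The heterochronic genes of Caenorhabditis elegans set the order in which larval cells take on the fates of each stage, and 9 of its protein-coding genes were examined for binding by CEH-20. They were lin-14, lin-28, lin-46, hbl-1, lin-41, lin-29, lin-42, blmp-1 and daf-12, taken by name from the 19973 protein-coding genes of the annotation. A peak was given to a gene when its summit lay from 5 kb upstream of the gene to 1 kb past its end, on assembly WBcel235 (ce11). CEH-20, the worm homolog of the PBX homeodomain cofactors of Hox proteins, was mapped by chromatin immunoprecipitation and sequencing (ChIP-seq) in 1 group of 2 biological replicates. Both came from strain RW12211, which carries the allele st12211[ceh-20::TY1::EGFP::3xFLAG] on chromosome III, a tag inserted at ceh-20 by CRISPR. Animals were synchronised by bleaching and starvation as L1 larvae and were collected whole as L4 larvae at 49 hours, and sonicated chromatin was pulled down with an anti-GFP antibody. All tissues were mixed, both samples carried the tag, and the strain is a single line, so there is no untagged or untreated group among the 2 samples and no condition to compare. Peak lists hold no expression levels, so the stage and the tissues could not be checked against marker genes, and a peak does not show in which cells the protein was bound.

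In the textbook pathway, LIN-14 and LIN-28 hold cells in early larval fates until the miRNA lin-4 represses them, and LIN-28 in turn opposes the let-7 family of miRNAs. HBL-1 acts between early and late fates, LIN-41 holds back the adult program until let-7 represses it, and LIN-29 then drives the switch to adult epidermis. LIN-42 and BLMP-1 act on the rhythm and strength of transcription in each larval cycle, and DAF-12 links the choice of fates to a steroid hormone. L4 is the last larval stage, when the switch to the adult takes place.

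Of the 9 genes, 6 had a summit in the conservative list, which is the authors' thresholded list of 2522 peaks drawn from both replicates. The count of peaks was 6 at lin-14, 3 each at lin-28 and hbl-1, and 1 each at lin-46, lin-42 and daf-12, giving 15 peaks. No conservative summit lay in the windows of lin-41, lin-29 and blmp-1. The deposited signal is the authors' measure of how strong a peak is, in units that are not stated, and peaks were ranked from 1, the strongest. The sequence around a summit is shown for the strongest peak of lin-14, lin-46, lin-42 and daf-12. It is also shown for the single peaks of lin-14 and hbl-1 that held a match to TGATNNAT and did not overlap a stronger peak. Each run holds 101 bp with the summit in the middle, read from the RefSeq sequence of WBcel235 on the plus strand, 5′ to 3′. Capitals mark a copy of a searched motif: TGATNNAT (either orientation, a PBX-Hox composite) in the upstream run of lin-14 and in that of hbl-1, GAGAGA on the minus strand in the intron run of lin-14, TGATAA in that of lin-46, and GAGACGCAG in that of lin-42, where 2 motifs from an earlier scan of these peaks overlap.
lin-14 intron peak, chrX:11472139-11472239: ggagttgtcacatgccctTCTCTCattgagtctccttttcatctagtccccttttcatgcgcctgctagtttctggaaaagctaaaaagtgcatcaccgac
lin-14 upstream peak, chrX:11463135-11463235: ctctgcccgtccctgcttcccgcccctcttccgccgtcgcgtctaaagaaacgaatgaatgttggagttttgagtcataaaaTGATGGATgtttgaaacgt
lin-46 upstream peak, chrV:12967987-12968087: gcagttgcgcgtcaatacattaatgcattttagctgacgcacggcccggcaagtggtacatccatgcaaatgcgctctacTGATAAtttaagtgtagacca
hbl-1 downstream peak, chrX:5828190-5828290: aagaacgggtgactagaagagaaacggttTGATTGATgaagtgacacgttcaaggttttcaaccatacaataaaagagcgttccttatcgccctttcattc
lin-42 intron peak, chrII:1246962-1247062: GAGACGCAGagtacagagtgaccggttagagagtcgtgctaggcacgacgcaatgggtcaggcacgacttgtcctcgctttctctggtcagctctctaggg
daf-12 intron peak, chrX:10637612-10637712: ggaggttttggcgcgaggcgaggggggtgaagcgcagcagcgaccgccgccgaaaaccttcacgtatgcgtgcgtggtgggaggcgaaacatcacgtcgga

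The windows of timing genes held more conservative peaks per length than protein-coding genes in general. Over all 19973 protein-coding genes, 18.2% had a conservative summit in the same kind of window. The timing genes have long windows, from 7876 to 36968 bp with a median of 13697 bp, against a median of 8027 bp for all protein-coding genes. The share was 21.9% among genes with a window at least as long as that of lin-46, the shortest, and 30.7% among those at or above the members' median. Per 10 kb of merged window, the timing genes held 0.904 summits and all protein-coding genes 0.254, a ratio of 3.56. Without lin-14 the ratio was 2.54. The 9 windows together covered 166 kb, so the 15 peaks are a small number, and these shares and ratios are descriptions with no test. The 9 genes were chosen with earlier results of these data known, so the shares and ratios describe that choice of genes.

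**Figure D1:**
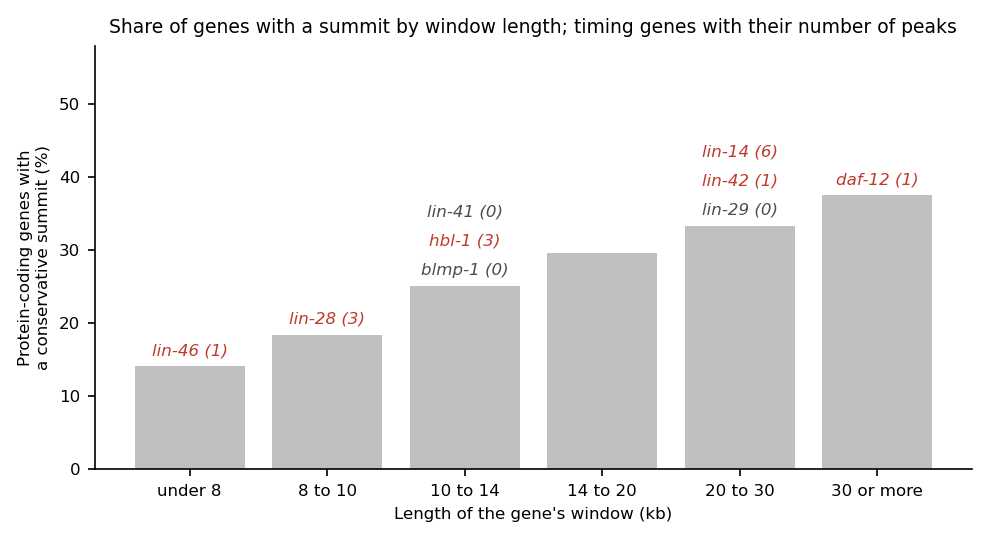
Bars give the percentage of protein-coding genes with a conservative summit in their window, by the length of the window in kb. Names stand above the bar of their length class, with the number of conservative peaks in brackets and genes with a peak in red; the share rises from 14.1% under 8 kb to 37.5% at 30 kb or more, and lin-29, in the class at 33.3%, has no peak.

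By chromosome, all 3 members on the X chromosome, lin-14, hbl-1 and daf-12, had a conservative peak, as did 3 of the 6 on autosomes, and 10 of the 15 peaks were on X. Among all protein-coding genes the share was 25.2% on X and 17.1% on autosomes. The density in member windows was 1.34 per 10 kb on X, against 0.360 for all genes there, a ratio of 3.71, but lin-14 held 6 of these 10 peaks, and without it the density on X was 0.823 and the ratio 2.29. On autosomes it was 0.549 against 0.232, a ratio of 2.37. There lin-28 held 3 of the 5 peaks, and no ratio without lin-28 was computed. With single genes holding most peaks on both sides, the ratios on X and autosomes cannot be ranked.

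The replicates alone gave fewer peaks at these genes. The thresholded list of replicate 1 held 6 summits at 5 members, beside a share of 10.3% of all protein-coding genes. That of replicate 2 held 7 summits at 5 members, beside 12.4%. In both cases hbl-1 was the bound member without a peak. The larger of the 2 thresholded lists drawn from both replicates, with 2632 peaks, held 12 summits at the same 5 members, beside 18.8%. Of the 15 conservative peaks, 6 overlapped a thresholded peak of each replicate (40.0%, against 34.1% of all conservative peaks), 2 did so in replicate 1 only, 1 in replicate 2 only and 6 in neither (40.0%, against 34.7%).

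**Figure D2:**
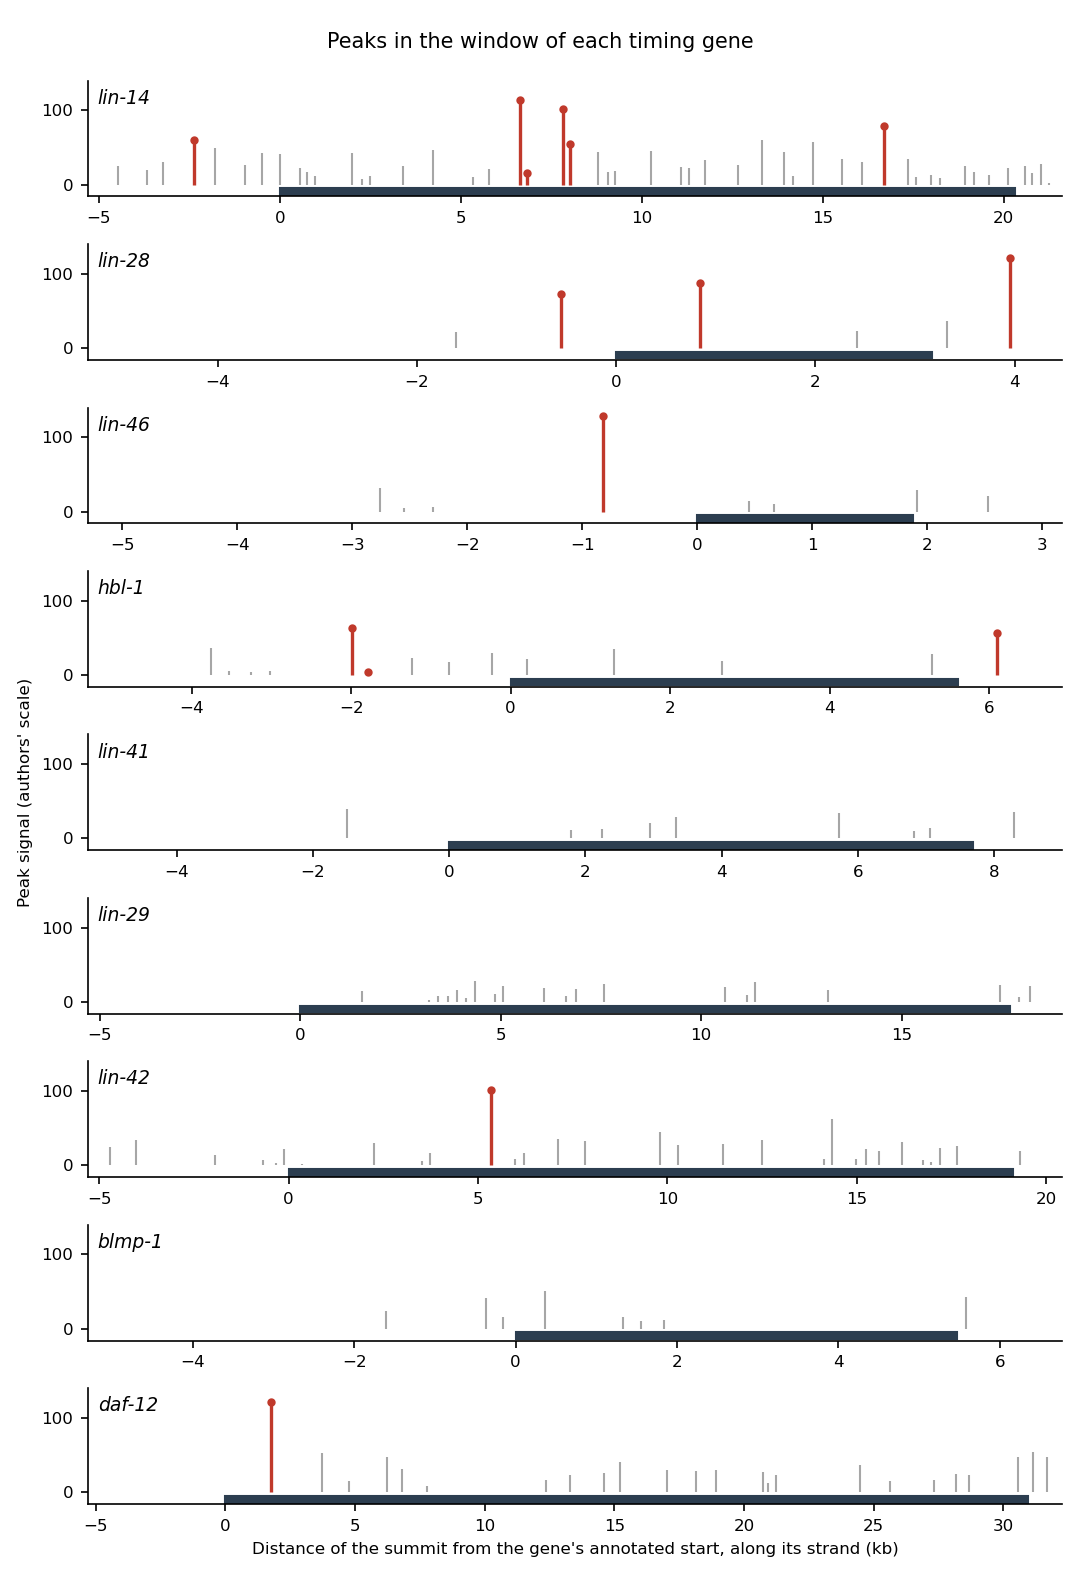
Signal of each peak (authors' scale) against the distance of its summit from the annotated start of the gene, in kb along its strand, with 1 panel per gene. Red stems with a dot are conservative peaks, grey stems are peaks of the ranked list that were not kept, and dark bars are genes; lin-14 carries 6 red stems from 15.2 to 114, while lin-41, lin-29 and blmp-1 have grey ones only.

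The gene lin-14 codes for a nuclear protein that sets first-stage fates, and it held the most peaks of the 9. At least 6 conservative summits were found for 13 of all protein-coding genes (0.0651%), lin-14 included. Its window is long, at 26312 bp. Among genes with a window at least as long as the 7876 bp of lin-46, 12 had that many (0.112%). Overlapping peaks are counted separately in these shares, and no share was computed for windows as long as that of lin-14. The gene spans chrX:11465560-11485871 on the plus strand. The strongest peak, at chrX:11472031-11472346, had a signal of 114 and rank 620. It lay in intron 3 of 11 in transcript T25C12.1a.1, an intron of 11174 bp, 6629 bp downstream of the annotated start. The overlapping peak had a signal of 63.8 in replicate 1 and 57.9 in replicate 2, and it passed the threshold in both. A second peak in the same intron (chrX:11473219-11473534) had a signal of 102, with 66.3 in replicate 1 and 46.3 in replicate 2, and passed the threshold in replicate 1 alone. In replicate 2 its irreproducible discovery rate (IDR, low where a peak keeps its rank between inputs) was 70.7%.

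The other lin-14 peaks were weaker. Each of the strong intron peaks had a neighbour that overlapped it, with a summit 206 bp away and a signal of 15.2, and 203 bp away and a signal of 54.2. Each neighbour was matched to the same replicate peak as the stronger one, so 6 listed peaks stand for 4 separate places. The deposited q-value of the first neighbour was 0.944. An upstream peak (chrX:11463027-11463342), 2375 bp before the start, had a signal of 59.4, with 42.9 in replicate 1 and 26.8 in replicate 2. The peak at chrX:11482103-11482418, in intron 5 and 1900 bp downstream of an internal start, had a signal of 78.3, with 40.9 and 33.9. Neither of these passed the threshold in a replicate list.

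LIN-28 is an RNA-binding protein that blocks the maturation of let-7. Its gene, on the minus strand at chrI:8407630-8410804, had 3 conservative peaks in a window of 9175 bp, the highest density of the 9 at 3.27 per 10 kb. The upstream peak (chrI:8411195-8411510), 549 bp before the start, had a signal of 72.9, with 35.4 in replicate 1 and 36.3 in replicate 2. It passed in neither replicate list. The peak at chrI:8409801-8410116 lay in intron 1, 39 bp before an internal start, with a signal of 87.9, and with 32.1 in replicate 1 and 54.8 in replicate 2. It passed in replicate 2 alone, and its ratio of replicate 1 to replicate 2, 0.586, was the lowest of the members' peaks. The strongest, with a signal of 121 at chrI:8406691-8407006, was 69.3 in replicate 1 and 46.5 in replicate 2 and passed in both. Its summit lay 781 bp past the end of lin-28 and 21 bp inside F02E9.1, in the 5′ UTR of that gene, so its nearest start is not that of lin-28.

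LIN-46, which resembles the scaffold protein gephyrin, acts below LIN-28 and counters HBL-1. In the conservative list and in replicate 1 its gene had the strongest peak of the 9, with a signal of 128 and rank 483 of 2522, at chrV:12967879-12968194. The signal was 90.5 in replicate 1, at rank 221 of its ranked list, and 46.3 in replicate 2, at rank 1038. In the thresholded list of replicate 2 it was the weakest of the strongest peaks of the 5 bound members, below lin-14 at 57.9, lin-28 at 54.8, daf-12 at 53.1 and lin-42 at 52.8. It passed the threshold in both, and its ratio of 1.95 between the replicates was the highest of the members' peaks, above the 95th percentile (1.74) of all conservative peaks. The summit was 818 bp upstream of lin-46 and 55 bp upstream of the start of R186.8. The protein-coding genes closest to lin-46 in the percentile of their strongest peak over the conservative and both replicate lists were R186.3, R186.8 and hrg-9, of 1558 genes compared. The difference was 0 for each, because the same peak lay in all their windows.

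HBL-1 is a zinc finger protein related to Drosophila Hunchback, and of the 6 genes with a peak its gene had the lowest strongest signal. The gene spans chrX:5822142-5827755 on the plus strand. An upstream peak (chrX:5819998-5820313), 1986 bp before the start, had a signal of 63.3 and rank 2069. The overlapping peak in replicate 2 had a signal of 40.2, and the ranked list of replicate 1 held no overlapping peak. A neighbour 199 bp away overlapped it with a signal of 4.25 and a q-value of 0.969. The peak past the gene's end (chrX:5828082-5828397) had a signal of 56.5, with 30.0 in replicate 1 and 31.0 in replicate 2, and lay 485 bp past the end and 1195 bp before a start of acp-5. All 3 were close to the threshold, with an IDR of 0.762% to 0.799% where every conservative peak was at 1% or below. None was in the larger list or in a replicate list.

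Neither lin-41 nor lin-29, the late genes of the pathway, was bound by this rule. LIN-41 is a TRIM-NHL protein that binds RNA. The strongest of its 9 ranked peaks had a signal of 39.3 at 1497 bp upstream, rank 7630 of 56499 and an IDR of 70.7%. In replicate 2 that place had a signal of 36.7 and rank 1765, with an IDR of 2.60%. The strongest peak of the lin-41 window in replicate 1 was elsewhere, past the gene, at 24.9. LIN-29 is an EGR-type zinc finger protein, and its gene had 20 ranked peaks in a window of 23702 bp. The strongest reached 28.1 at rank 18461, with an IDR of 49.7%. The highest signals in the replicates, 21.8 and 28.1, lay upstream of the gene instead, 3556 and 3580 bp before its start.

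LIN-42 is the worm homolog of Period, a protein of circadian clocks. Its gene is 19124 bp long with several annotated starts and had 30 ranked peaks, of which 1 was conservative. That peak (chrII:1246854-1247169) had a signal of 101 and rank 822, and the replicates were nearly equal, at 52.4 and 52.8. It lay in intron 1, which is 8173 bp long, 5347 bp downstream of the first start and 2977 bp upstream of an internal one, and it passed in both replicates. Just outside the threshold were 2 overlapping lin-42 peaks farther into the gene, of signal 63.0 and 8.81, at an IDR of 1.85%. Just outside it at lin-14 were peaks of 46.2 and 49.5, at 1.21% and 1.26%. The signal of 63.0 was above that of some peaks inside the threshold, such as those of hbl-1 at 56.5 and lin-14 at 59.4. The order by signal thus differed from the order by IDR, and 28 ranked peaks at or past the lowest −log10 IDR of the conservative list were not in that list.

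BLMP-1, related to the mammalian repressor PRDM1, had a gene without a conservative peak. The strongest of its 8 ranked peaks lay 369 bp downstream of the start with a signal of 51.4, rank 3744 and an IDR of 6.48%. The strongest signals in its window were 29.1 in replicate 1, past the gene, and 29.7 in replicate 2, near the start. For hbl-1, which had conservative peaks, the strongest signals were also at different places. They were 30.0 in replicate 1, past the gene, and 40.2 in replicate 2, upstream of it.

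DAF-12 is a nuclear hormone receptor that binds dafachronic acids. Its gene, the longest of the 9 at 30968 bp, had 24 ranked peaks and 1 conservative peak (chrX:10637504-10637819). The signal was 121 at rank 544, with 65.2 in replicate 1 and 53.1 in replicate 2, and it passed in both. The summit lay in intron 1 of 8353 bp, 1754 bp downstream of the first start and 6747 bp upstream of the next. With 65.3% G and C in the 101 bp around its summit, it was the most GC-rich of the members' peaks.

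**Figure D3:**
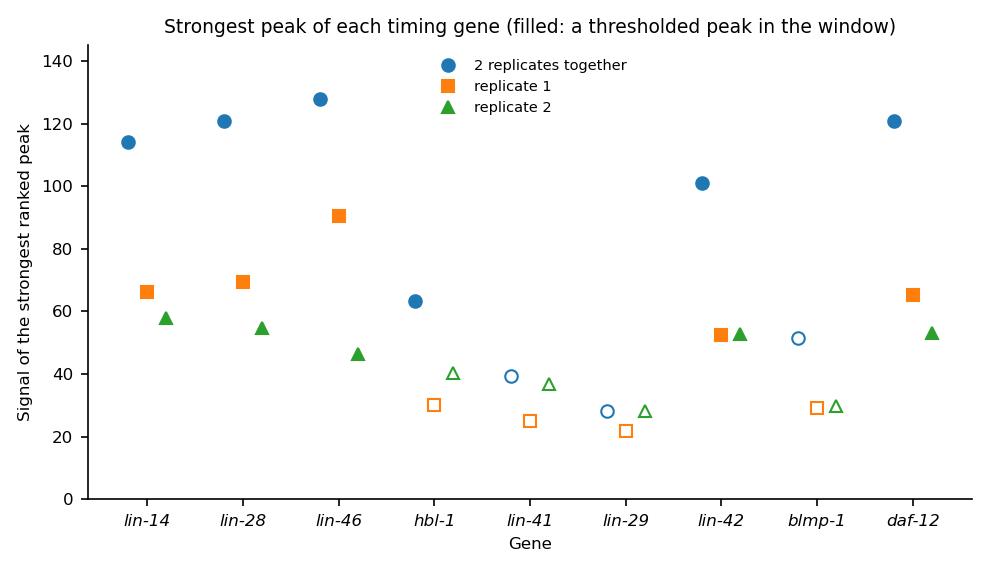
Signal (authors' scale) of the strongest ranked peak in the window of each gene, in the list from both replicates (circles) and in replicate 1 (squares) and replicate 2 (triangles). Filled marks have a peak of the matching thresholded list in the window; lin-46 is highest in the list from both replicates (128) and in replicate 1 but not in replicate 2, hbl-1 is filled in the list from both replicates alone, and lin-41, lin-29 and blmp-1 are open in all.

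As a group the 15 peaks were of ordinary strength for the list. Their median signal was 78.3, with a range from 4.25 to 128, against a median of 83.2 for all conservative peaks, and 7 of 15 were above it. Overlap with a stronger conservative peak was found for 3 of the 15, against 6.58% of the list. These 3, with signals of 54.2, 15.2 and 4.25, lay below the list's median and lowered that of the 15. The ratio of replicate 1 to replicate 2 could be formed for 13 and had a median of 1.21, against 1.08 over 2476 conservative peaks, of which the middle 90% lay from 0.653 to 1.74. In the ranked list 168 summits lay in the members' windows, or 10.1 per 10 kb against 5.75 for all genes, a ratio of 1.76. The share of them that passed into the conservative list was 8.93%, against 4.46% of all ranked peaks.

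**Figure D4:**
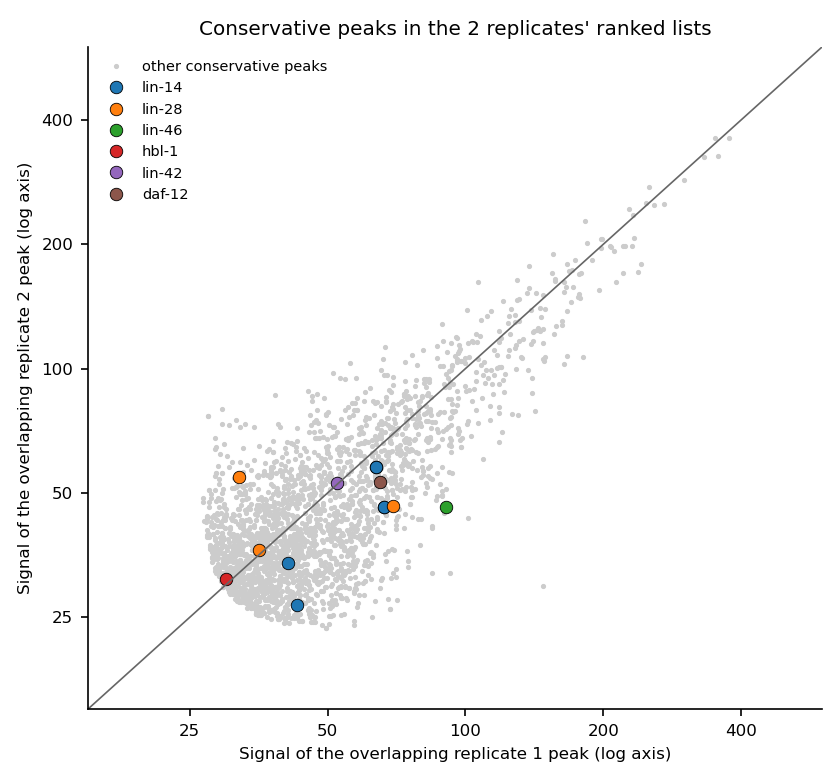
Signal of the overlapping peak in replicate 2 against that in replicate 1, both on log axes, for conservative peaks with a match in both ranked lists (grey) and for those of the timing genes (colours); the line marks equal values. Neighbouring lin-14 peaks matched to the same replicate peaks fall on one point, the lin-46 peak lies farthest to the right of the coloured points at 90.5 and 46.3, and the single hbl-1 point is at 30.0 and 31.0.

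The peaks at timing genes sat farther from transcript starts than the list in general. The members' windows are long, and no comparison matched for length was made. The median distance of the 15 peaks to the nearest protein-coding start was 1900 bp, against 863 bp for all conservative peaks. The longest distances, 6629 to 6984 bp, were those of the overlapping pairs in intron 3 of lin-14. Within 500 bp of a start lay 3 of 15, against 38.7% of all conservative peaks. These 3 were the lin-46 peak and both the intron and downstream peaks of lin-28, of which 2 were near the start of a neighbour. An intron of the member held 8, 5 were upstream and 2 past its end, and none was in an exon of the member. Over the list, 26.5% of summits lay in an intron with no exon at that base. The nearest start belonged to the member itself for 12 of 15. None was within 200 bp of a tRNA gene, where 8.92% of the conservative peaks lay.

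A copy of any of the 8 searched motifs lay near 7 of the 15 summits. The share of all conservative peaks with any of the 8 was not computed, so only single motifs are compared. Both strands were searched over the 101 bp around each of the 15 summits, of which 6 are printed. TGATNNAT was found at 3 of 15, against 10.2% of all conservative and 7.44% of all ranked peaks. The count depended on the width searched, with 1 of 15 within 25 bp of the summit (5.35% of conservative peaks) and 5 of 15 within 100 bp (17.8%). The 3 found within 50 bp were at lin-14 and hbl-1. They were the upstream peak of lin-14 (35 bp from the summit), the peak past the end of hbl-1 (18 bp) and the weak neighbour upstream of hbl-1 (38 bp, signal 4.25). Within 50 bp, none of the strongest peaks of the 6 bound genes held TGATNNAT. The PBX-Meis composite TGATTGAC (0.753% of conservative peaks), the Meis core TGACAG (4.88%) and the E-box CACGTG (5.43%) were at 0 of 15. The GATA-type site, spelled TGATAA, was at 2, in lin-28 and lin-46 (11.4% of the list). GAGAGA was at 1, in the strongest lin-14 peak, against 22.3%. AGACGCAG (7.30% of the list) and CGTCTC (15.4%), chosen with earlier results known, were both at the lin-42 peak alone, where they overlap. TGATNNAT and TGATTGAC can overlap each other, and a match is a string of letters and not evidence of a site.

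Other genes of the pathway were looked up from a list of 39, which was chosen with earlier results of these data known, so its shares describe that choice of genes and support nothing about the pathway. All 39 matched the annotation, and 20 had a conservative summit (51.3%). Among its 33 protein-coding genes 14 did (42.4%), against 18.2% of all. Their windows had a median of 11428 bp, and 25.1% of all protein-coding genes with a window from 10 to 14 kb had a summit. All 5 miRNA genes of the list had one, against 23.4% of the 261 annotated miRNA genes. The lincRNA lep-5 had a strongest peak of 73.6. The mature miRNAs are shown from the RefSeq annotation and sequence of WBcel235, with the seed, bases 2 to 8, in capitals, because let-7, mir-48, mir-84 and mir-241 share one seed and lin-4 has another.
lin-4: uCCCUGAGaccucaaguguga
let-7: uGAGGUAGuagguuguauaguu
mir-48: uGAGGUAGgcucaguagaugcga
mir-84: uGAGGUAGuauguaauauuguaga
mir-241: uGAGGUAGgugcgagaaauga

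The strongest peak of mir-241 had a signal of 116, with 47.7 in replicate 1 and 73.7 in replicate 2, and that of let-7 had 101, with 58.5 and 42.9. Both passed in both replicates. Those of mir-84 at 111, mir-48 at 96.0 and lin-4 at 74.5 passed in replicate 2 but not in replicate 1. The windows of mir-48 and mir-241 overlap, so their peaks are partly the same. The distance upstream of the annotated gene was 463 bp for lin-4, 1831 bp for let-7 and 2365 bp for mir-84. It was 2164 bp for mir-48 and 3303 bp for mir-241. The mir-48 summit, at chrV:14366673, lay closer to mir-241 at chrV:14366188-14366283 than to mir-48. The let-7 summit lay closer to a protein-coding start, 151 bp upstream of that of C05G5.2.

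Among proteins that work with these miRNAs, nhl-2, a TRIM-NHL cofactor of miRNA silencing, had the strongest peak of the wider list at 415, with 183 in replicate 1 and 228 in replicate 2. Its nearest start was that of tag-340, 569 bp away. The Pumilio gene puf-9 had 306, the GW182 gene ain-1 215 and the Argonaute gene alg-1 107. The other Argonaute and GW182 genes of the list, alg-2 and ain-2, had no conservative summit. Of genes that act with DAF-12, its corepressor din-1 had 4 peaks, the strongest at 146, while daf-9, daf-36 and dhs-16 of hormone synthesis had none.

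Further bound genes were lin-66 at 133, which lowers lin-28, sea-2 at 96.6, and apl-1, a homolog of the amyloid precursor protein, at 85.7. The gene kin-20, a casein kinase homolog, had 5 peaks, from 2.24 to 84.6. The lin-29 cofactor mab-10 had 78.5, elt-3 71.3, let-60 66.9, mab-3 59.8 and the adult collagen gene col-19 54.2. The strongest peaks of elt-3, let-60, mab-3 and col-19 were in neither replicate list. That of elt-3 lay past the gene's end, and that of let-60 was nearest to the start of ZK792.12, 1293 bp away. The median of the 20 strongest peaks was 96.3, and 10 of the 20 were in the lists of both replicates. The nuclear receptor genes nhr-23, nhr-25 and nhr-85, and rnt-1, bro-1, ceh-16, elt-1, egl-18 and elt-6 of the seam and epidermis, had no conservative summit. Nor had dre-1, lep-2, col-17, mlt-10 and dmd-3.

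**Figure D5:**
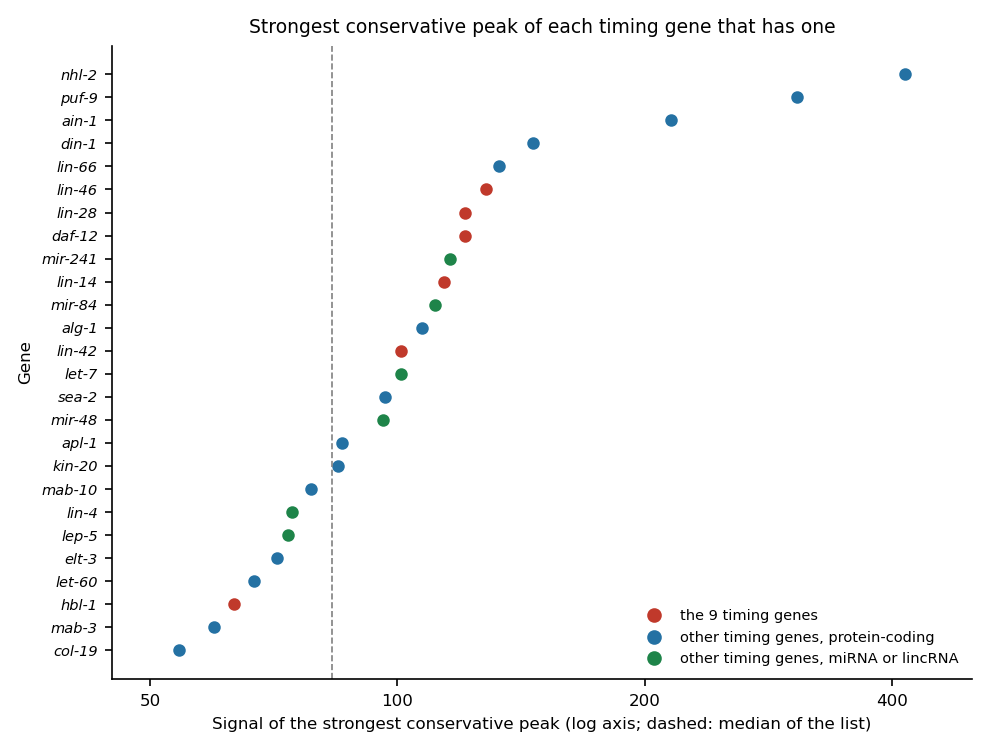
Signal of the strongest conservative peak (authors' scale, log axis) of each timing gene that has one, with the 9 genes in red, other protein-coding timing genes in blue and miRNA or lincRNA genes in green. The dashed line is the list's median of 83.2; lin-46, lin-28, daf-12, lin-14 and lin-42 lie above it and hbl-1 below it, and nhl-2 is highest at 415.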

How the data were processed

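ChIP-seq peak lists on ce11 were used as the authors deposited them: ranked and thresholded lists per replicate and for both replicates. The authors deposited for each peak a score scaled by IDR up to 1000, a signal whose units are not stated, a −log10 q-value, the offset of the summit and, in ranked lists, a −log10 IDR. The aligner, peak caller and versions are not given in the sources used here. Control libraries were not analysed here. Without read counts, depth per sample is unknown, so no interval was given.

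From these lists, summits were counted in strand-aware windows of Ensembl release 115 genes (miRNA names and sequence from RefSeq). The peak of a replicate's ranked list that overlapped by at least 1 bp, with the nearest summit, was taken as its match. All 9 genes, all their peaks, the nearest coding starts, 3 genes most like lin-46 and bound genes of the wider list were named by rule. The members and lists were chosen with earlier results of these data known. With 1 group, nothing was tested. Counting, starts and motif search were tested on simulated data. Alternatives were other lists, windows, overlaps and distances. Python 3.11.15, numpy 2.4.6, pandas 2.3.3 and matplotlib 3.10.9 were used.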

Additional observations from a re-analysis of the deposited data

How the results depend on the processing

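The count of bound members stayed at 5 or 6 of 9 under every alternative run, and the ratio of densities over all chromosomes lay between 2.54 and 4.03. The share of all protein-coding genes with a summit moved more, from 18.2% in the main setting to 13.2% with 2 kb upstream and 25.4% with 10 kb upstream. It was 10.8% for peaks at or above the list's median signal, and 18.2% without peaks that overlap a stronger one. A steady count of members therefore does not show a steady excess over that share. The number of peaks was 7 among conservative peaks at or above the list's median signal, and it was 9 without lin-14, an alternative chosen after seeing the data, which also took the ratio on the X chromosome from 3.71 to 2.29. Leaving out peaks that overlap a stronger one, also chosen after seeing the data, left 12 peaks at 6 members and a ratio of 3.04. Leaving out each replicate in turn gave 6 to 7 peaks, 5 members, ratios of 2.79 to 2.87, and a median percentile of the strongest peak from 51.0 to 60.6, against 76.9 in the conservative list; for lin-46 it was 33.5 without replicate 1 and 82.8 without replicate 2. Matches to TGATNNAT were at 5 peaks within 100 bp of the summit and at 1 within 25 bp. These lists and search widths are shorter or longer by construction, and the cause was otherwise not tested. In all, 30 of 39 alternatives stayed within 1.5 times the count or within the SD between the replicate lists. No paired analysis was possible because both samples belong to 1 group. With 15 peaks and 2 replicates, a single peak moves the shares.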
